A study of Mus musculus with 8 samples.

Results

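Aminoacyl-tRNA synthetases join each amino acid to its transfer RNA, the step that decides which amino acid a codon is read as. The synthetase genes were taken as the rows of the deposited table whose symbol is 1 capital letter followed by ars, ars1 or ars2, together with Eprs, Eprs1, Farsa and Farsb. This rule found 37 genes among 54091 rows, of which the 17 ending in ars2 form the mitochondrial set and the other 20 the cytosolic set. The rule uses names only and no measured value.

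RNA-seq was done on white quadriceps of 8 male mice aged 11 to 14 weeks, all fasted overnight for 14 h. Acot2 is the gene of an enzyme of the mitochondrial matrix that releases fatty acids from acyl-CoA. The genotype of 4 mice was Loxp/Loxp, read here as floxed Acot2 without Cre (floxed controls 1 to 4), and that of the other 4 was CKM Cre with Acot2 knocked out in muscle (knockouts 5 to 8). Values per library are given in that order throughout. Ckm is the muscle creatine kinase gene, whose promoter drives Cre in muscle fibres and not in the other cells of the tissue. Mice with Cre and no floxed allele were not analysed here, so Cre and loss of Acot2 cannot be told apart.

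Mammals keep 2 sets of synthetases, both encoded in the nucleus. The cytosolic enzymes serve the ribosomes that translate nuclear messages, and several of them are held in a multisynthetase complex. The mitochondrial enzymes are imported and charge the transfer RNAs of the mitochondrial genome, which encodes core subunits of the respiratory chain. Kars and Gars, the lysine and glycine enzymes, serve both compartments from 1 gene and are counted in the cytosolic set. Many cytosolic synthetase genes are known targets of ATF4, the transcription factor that answers amino acid shortage.

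Sequences of 300 bases around the start of transcription, 250 before and 50 after, were matched for 27 of the 37 genes (RefSeq, GRCm38.p6; 13 cytosolic and 14 mitochondrial). The ATF4 response element, searched as TGATGNAA on both strands, was found in the windows of 5 cytosolic genes (Aars, Gars, Iars, Tars and Yars) and of 0 mitochondrial genes, while 3.97% of all 32851 promoter windows held it. The windows below are shown because these 5 genes share that element, whose letters are in capitals, and each is printed 5′ to 3′ along the gene's own strand.
Aars, chr8:111033592-111033891, plus strand: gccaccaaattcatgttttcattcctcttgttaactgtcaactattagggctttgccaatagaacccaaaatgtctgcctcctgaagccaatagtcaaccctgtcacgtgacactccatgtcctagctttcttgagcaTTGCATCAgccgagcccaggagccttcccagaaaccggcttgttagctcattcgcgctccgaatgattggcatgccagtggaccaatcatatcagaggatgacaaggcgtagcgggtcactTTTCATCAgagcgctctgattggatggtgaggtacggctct
Gars, chr6:55037751-55038050, plus strand: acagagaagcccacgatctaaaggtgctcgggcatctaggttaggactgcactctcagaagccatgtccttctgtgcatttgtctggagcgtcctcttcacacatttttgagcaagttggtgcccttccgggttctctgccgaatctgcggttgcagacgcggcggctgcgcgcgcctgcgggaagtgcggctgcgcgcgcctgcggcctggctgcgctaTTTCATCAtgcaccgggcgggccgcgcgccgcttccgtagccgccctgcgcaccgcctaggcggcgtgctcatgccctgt
Iars, chr13:49681880-49682179, plus strand: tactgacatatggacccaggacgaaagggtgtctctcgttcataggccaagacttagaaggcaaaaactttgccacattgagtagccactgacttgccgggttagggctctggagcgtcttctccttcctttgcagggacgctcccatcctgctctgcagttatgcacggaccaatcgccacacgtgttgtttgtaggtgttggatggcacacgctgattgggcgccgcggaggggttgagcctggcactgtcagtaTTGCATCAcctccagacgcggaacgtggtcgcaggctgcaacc
Tars, chr15:11399609-11399908, minus strand: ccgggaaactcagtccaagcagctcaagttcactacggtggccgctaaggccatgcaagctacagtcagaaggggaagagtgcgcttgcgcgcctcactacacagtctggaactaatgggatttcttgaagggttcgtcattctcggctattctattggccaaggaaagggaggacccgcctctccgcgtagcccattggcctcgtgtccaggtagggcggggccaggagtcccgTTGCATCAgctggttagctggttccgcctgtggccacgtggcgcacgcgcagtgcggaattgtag
Yars, chr4:129189653-129189952, plus strand: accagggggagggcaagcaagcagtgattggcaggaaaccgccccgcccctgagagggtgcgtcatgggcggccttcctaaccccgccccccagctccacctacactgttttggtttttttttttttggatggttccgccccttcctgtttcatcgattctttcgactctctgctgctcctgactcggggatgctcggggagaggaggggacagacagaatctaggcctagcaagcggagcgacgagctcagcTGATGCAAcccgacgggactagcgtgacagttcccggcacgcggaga
The window of Aars, the alanine enzyme gene, held 2 copies and the other windows 1 copy each. The distances from the annotated start, which is base 0, were -112 and 9 bases in Aars, -30 in Gars, 7 in Iars, -15 in Tars and 3 in Yars. The binding motif of NRF1, a factor known for genes of mitochondrial function, was searched on both strands as GCGCA, any base, then GCGC, and 4.60% of all windows held it. It was found in the windows of the mitochondrial genes Iars2 and Mars2 and of the cytosolic genes Farsb, Kars and Tars, with 2 copies in Tars. The window of Iars2, shown as the most abundant mitochondrial member, has these letters in capitals.
Iars2, chr1:185329352-185329651, minus strand: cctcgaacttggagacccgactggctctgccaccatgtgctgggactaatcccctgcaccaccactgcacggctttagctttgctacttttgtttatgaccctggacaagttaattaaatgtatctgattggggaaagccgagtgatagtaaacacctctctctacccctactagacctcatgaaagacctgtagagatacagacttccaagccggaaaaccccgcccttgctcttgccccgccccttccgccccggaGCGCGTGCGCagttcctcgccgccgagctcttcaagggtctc
The E-box, CACGTG, which MYC family factors bind, was in the windows of Aars, Farsb, Iars, Tars and Ears2 (7.15% of all windows). Among the 27 members with a window, the GABP motif ACCGGAAG was in Farsa alone (2.30% of all windows). TGACGTCA (CREB family, 1.79%) and TCAAGGTCA (estrogen-related receptors, 0.423%) were in 0 of these 27. No match overlapped one of another motif in these windows. Each match is a match of letters and says nothing of binding in this muscle.

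The libraries held between 28659633 and 40977866 reads on genes. Acot2 was at 1675, 3927, 2492 and 1529.5 normalized counts in floxed controls and at 413, 312, 600.5 and 543 in knockouts, so the groups did not overlap (difference -2.30 on the log2 scale, SE 0.287, exact two-sided permutation p = 0.0286, the smallest this design allows). Normalized counts are the authors' read counts divided by 1 size factor per library. Fast fibre markers (Ckm, Acta1, Myh4, Myh1, Actn3 and Pvalb) were all present, and the T cell markers Cd3e, Cd3g, Cd8a and Cd4 summed to at most 5.21 normalized counts in any library. The summed level of 6 endothelial markers was between 6645 and 7618 in floxed controls and between 7741 and 9230.3 in knockouts, without overlap. That of 6 macrophage markers was between 1122 and 2011 in floxed controls and between 1867 and 3359 in knockouts. The sums of fast fibre, slow fibre, T cell, macrophage, fibroblast, adipocyte and Schwann cell markers all overlapped between the groups. Fibroblast markers, for example, summed to between 23475 and 36071 in floxed controls and between 22943 and 53984 in knockouts. Of single tested genes, 1.13% had every knockout above every control.

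All 37 synthetase genes were expressed, and the cytosolic ones at higher levels per length than the mitochondrial ones. Levels are given as normalized counts per kilobase of the longest coding transcript, averaged over the 8 libraries. The cytosolic set had a median of 647 per kilobase, with a range from 279 (Farsa) to 3379 (Eprs). The mitochondrial set had a median of 115, with a range from 14.5 (Pars2) to 431 (Iars2). Iars2, the mitochondrial isoleucine enzyme gene, was the 1 mitochondrial member above the lowest cytosolic one.

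Eprs, which encodes the joined glutamate and proline enzyme of the multisynthetase complex, stood apart from every other member. Its level was 3379 ± 279.9 per kilobase (SD, n = 8), which is 2.40 times that of Nars, the asparagine enzyme gene, at 1406 ± 44.7 (SD, n = 8). The lowest Eprs library, at 2850.0 per kilobase, lay above the highest Nars library, at 1487. Dars (aspartate) followed at 1240.3, Kars at 1035 and Gars at 950.2 per kilobase. Of the 36 pairs of neighbours in the order of levels, 31 overlapped between libraries, so most steps in the order are within the spread between mice. The steps without overlap were those from Eprs to Nars, Dars to Kars, Qars to Yars, Ears2 to Vars2 and Mars2 to Pars2.

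**Figure D1:**
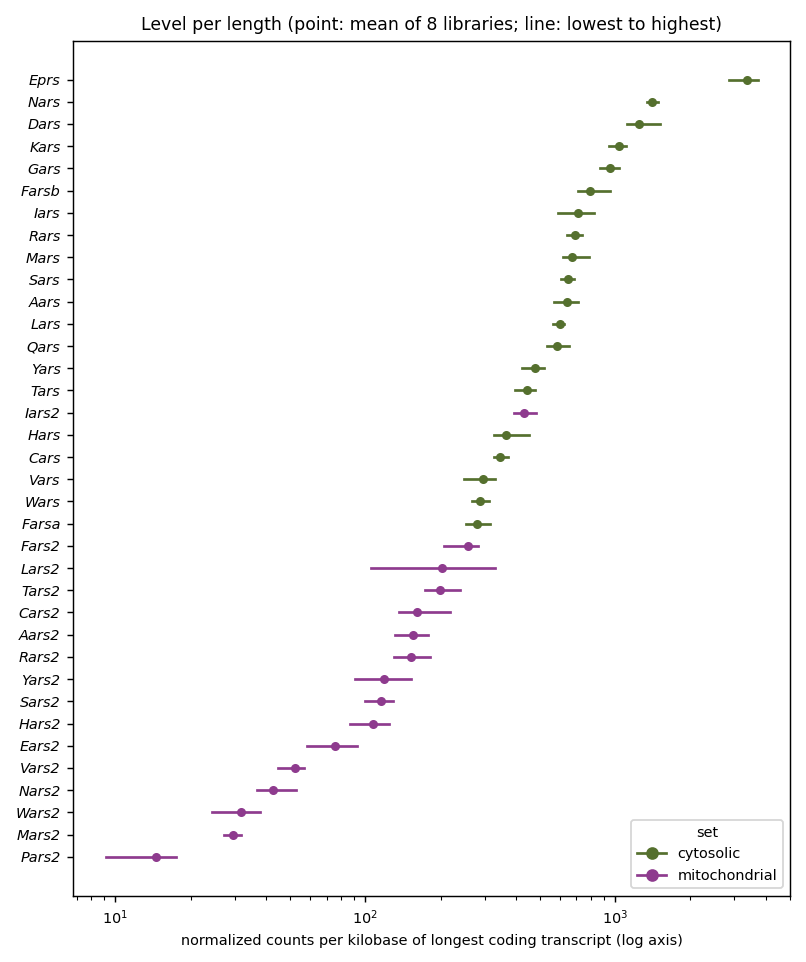
Level of 36 synthetase genes in normalized counts per kilobase on a log axis; points are means of 8 libraries, lines run from the lowest to the highest library, and colours mark the cytosolic and mitochondrial sets. Eprs is highest at 3379 and Pars2 lowest at 14.5, and Iars2 is the 1 mitochondrial gene that lies among the cytosolic ones.

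For each amino acid with a mitochondrial gene, the cytosolic partner had the higher level per kilobase, in 17 of 17 pairs (Eprs was used for both glutamate and proline, and Farsa for phenylalanine). The median ratio was 4.55. The closest pair was Farsa with Fars2, at 279 and 258 per kilobase, and the most distant was Eprs with Pars2, the mitochondrial proline enzyme gene, with a ratio of 233. The libraries of Farsa (253 to 314) and Fars2 (207 to 281) overlapped. Before division by length Fars2 was the higher, with group means of 546 and 552 normalized counts against 491 and 528 for Farsa. The order of that pair thus depends on the annotated lengths. Iars with Iars2 had a ratio of 1.65, and Nars with Nars2 one of 33.0. Transcript length was taken from the annotation. Mars2, the mitochondrial methionine gene, has a single exon of 11294 bases there, so its level of 29.4 per kilobase depends on that length.

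No synthetase gene passed the test of genotype. With limma and Benjamini-Hochberg adjustment over 13141 tested genes, 0 of 37 members had an adjusted p under 0.05, against 0% of all genes, and the adjusted p of members ranged from 0.746 to 0.979. All 37 members had a mean of at least 10 normalized counts and were tested. Acot2, the targeted gene, was at 20.3% of the floxed control level and was itself not called (limma adjusted p = 0.087). At an unadjusted p under 0.05 there was 1 member, Vars, lower in the knockout, where 3.7% of all genes were lower and 2.47% higher at that level, and with voom on recovered reads 0 of 37 adjusted and 0 unadjusted. Differences below are log2 values of the knockout mean minus the control mean, each with the SE that limma gave and 4 mice a group, and no member's value is a called change.

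The 2 sets differed in the sign of their values. Of 17 mitochondrial members 16 had a difference above 0, with a median of 0.097, and of 20 cytosolic members 8 had one, with a median of -0.036, against 50.6% of all tested genes and a median of 0.0031. With every library scaled to the same total of counts, 11 of 20 cytosolic members were above 0 (median 0.0057), with 16 of 17 mitochondrial members (median 0.137), while the median of all tested genes moved to 0.044. With titin and the mitochondrial genome left out of that total, the cytosolic split was again 8 above and 12 below (median -0.018), with a mitochondrial median of 0.114 and one of 0.020 over all tested genes. Without knockout 5 the cytosolic split was 10 and 10. The difference between the sets was not tested. Within 14 of the 17 pairs the mitochondrial gene had the higher difference, and the exceptions were leucine, histidine and phenylalanine. The phenylalanine exception depends on the use of Farsa (0.104), as Fars2 (0.0217) was just above Farsb (0.0202), the other subunit gene.

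**Figure D2:**
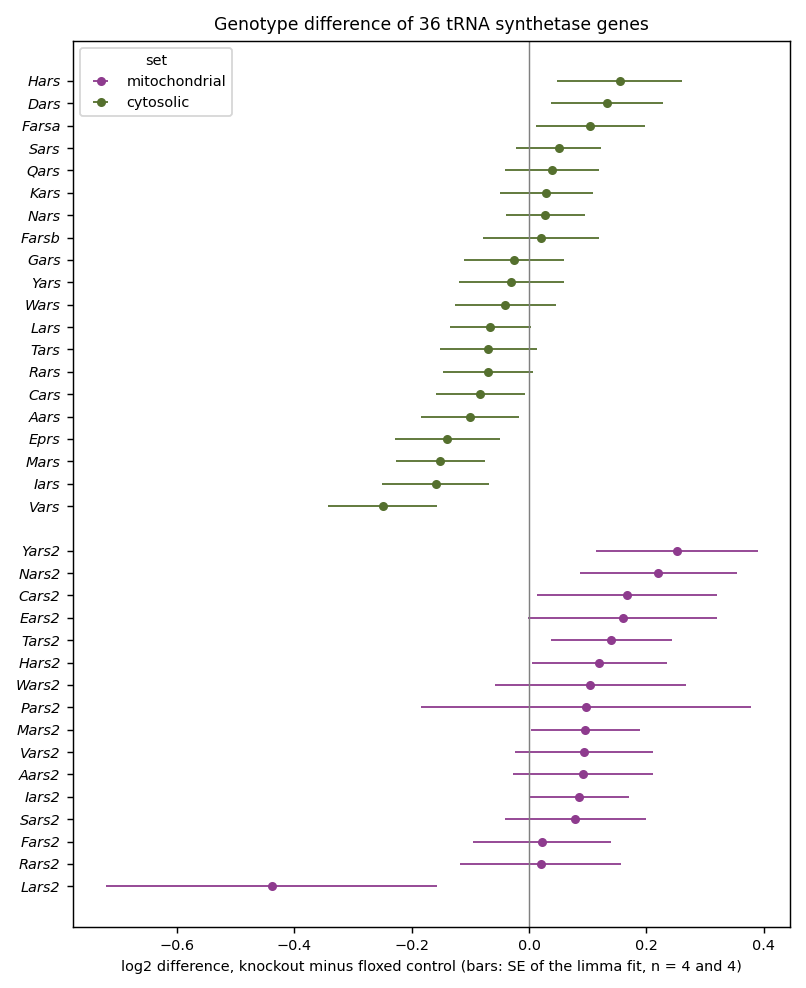
Difference between knockout and floxed control for 36 synthetase genes on the log2 scale, with the SE of the limma fit as bars and 4 mice a group; the sets are coloured. Of the 16 mitochondrial genes drawn 15 lie above 0 and Lars2 lies at -0.44, while cytosolic points run from -0.25 (Vars) to 0.15 (Hars).

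The mean log2 value of the mitochondrial set was 8.20, 8.30, 8.27 and 8.19 in floxed controls and 8.24, 8.37, 8.35 and 8.37 in knockouts. Knockouts 6 to 8 lay above every floxed control and knockout 5 among them. Without Lars2 the 16 other genes gave 8.07, 8.24, 8.20 and 8.08 in controls and 8.12, 8.31, 8.33 and 8.32 in knockouts, with knockouts 6 to 8 again highest. Titin transcript, the giant sarcomeric protein gene Ttn, took 12.8%, 11.8%, 12.2% and 14.9% of normalized counts in floxed controls and 13.9%, 8.67%, 8.34% and 9.22% in knockouts. The same 3 knockouts were thus apart in titin share, and the sign counts with titin left out of the scaling stand above. The part of the endothelial marker level given above was not tested. In bulk tissue, fewer cells of a type and less RNA per cell cannot be told apart.

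The cytosolic set had means of 10.92, 10.93, 10.92 and 10.89 in floxed controls and 10.83, 10.86, 10.89 and 10.95 in knockouts. Knockouts 5 and 6 lay below every floxed control and knockout 8 above them, so the groups overlapped. Knockout 5 had the lowest value of its group in 10 of 20 cytosolic and 11 of 17 mitochondrial genes. Floxed control 4 had the lowest of its group in 9 of 20 and 7 of 17.

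**Figure D3:**
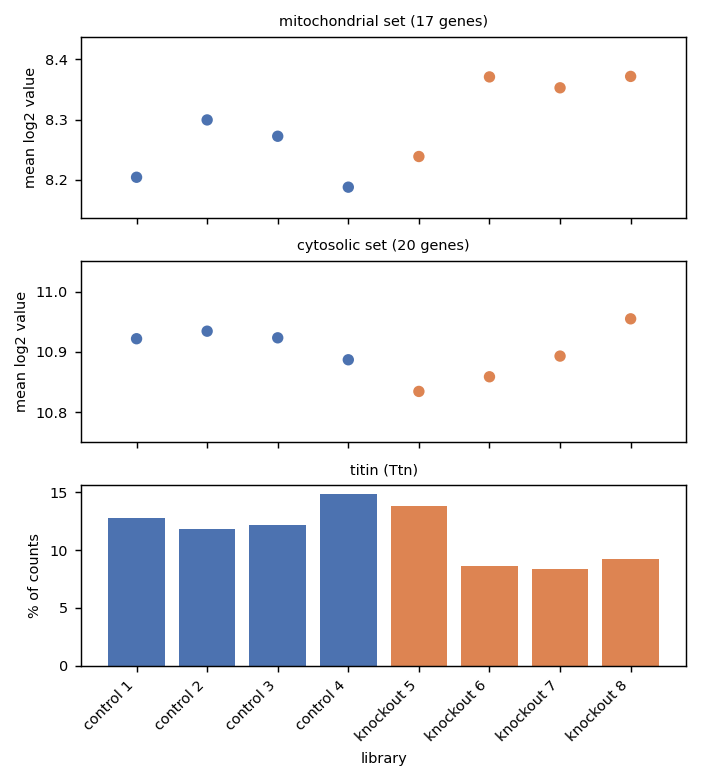
Mean log2 value of the 17 mitochondrial and 20 cytosolic synthetase genes and the share of normalized counts on titin, for each of the 8 libraries (blue, floxed control; orange, knockout). Knockouts 6 to 8 have the highest mitochondrial means, from 8.35 to 8.37, and the lowest titin shares, from 8.34% to 9.22%.

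**Figure D4:**
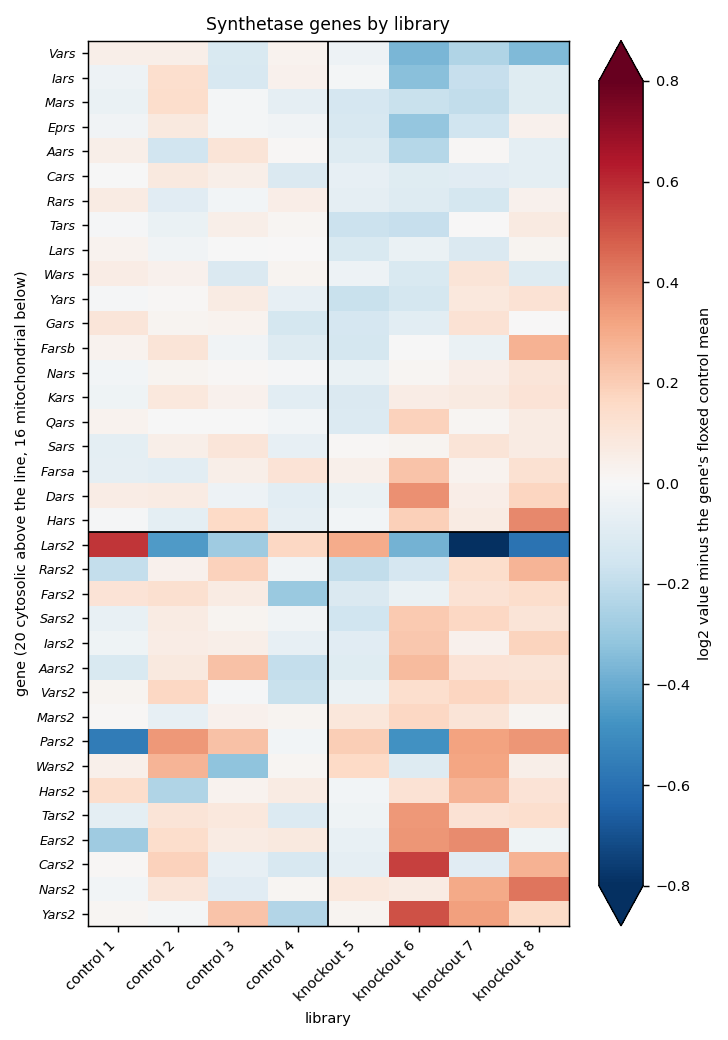
Log2 value of 36 synthetase genes in each library minus its floxed control mean, red for higher and blue for lower, with 20 cytosolic genes above the line and 16 mitochondrial genes below. Red is most frequent in the mitochondrial rows of knockouts 6 to 8, and the colour scale ends at 0.8 in each direction, which Lars2 passes in knockout 7.

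Among cytosolic genes, Vars, Mars, Iars and Eprs had the lowest differences. Vars, which charges valine and lies on chromosome 17 (35000987 to 35016322, plus strand, GRCm38), was at 1372, 1372, 1219.9 and 1355 normalized counts in floxed controls and at 1294, 1030.5, 1123 and 1039.6 in knockouts. Knockouts 6 to 8 lay below every floxed control, and knockout 5 lay above control 3. The difference was -0.25 (SE 0.0932, 95% interval from -0.46 to -0.04, limma adjusted p = 0.746), which is 84.1% of the floxed control level.

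Mars, the methionine enzyme gene on chromosome 10 (127296221 to 127311786, minus strand), was the 1 member whose groups did not overlap. It had 2025, 2318, 2075 and 1995 normalized counts in floxed controls and 1916, 1855, 1834 and 1959 in knockouts, a difference of -0.15 (SE 0.0758, limma adjusted p = 0.746). Over all tested genes, 1.62% had every knockout below every control and 1.13% every knockout above, so 1 of 37 is near the background. The annotated end of Mars overlaps that of Ddit3 on the opposite strand (127290774 to 127296288, the longer record of Ddit3 in the annotation), and the strand setting of the counting is not given in the sources used here, so reads in the overlap cannot be told apart. Ddit3, the gene of the stress factor CHOP, had between 39.6 and 92.2 normalized counts over all 8 libraries.

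Iars, which charges isoleucine within the multisynthetase complex, had 3222, 3626, 3029 and 3386 normalized counts in floxed controls and 3273, 2619.6, 2908 and 3089.7 in knockouts. Knockouts 6 and 7 lay below every control and the others among them (difference -0.16, SE 0.0909, limma adjusted p = 0.748). Eprs, on chromosome 1 (185363044 to 185428360, plus strand), had 17021, 18270.4, 17137 and 16978 normalized counts in floxed controls and 15896, 13982, 15553 and 17766 in knockouts (difference -0.14, SE 0.0896, limma adjusted p = 0.757). Knockout 8 lay within the controls and the other 3 knockouts below them. The Eprs difference was -0.083 without knockout 6, and the Iars difference -0.100 without knockout 6.

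**Figure D5:**
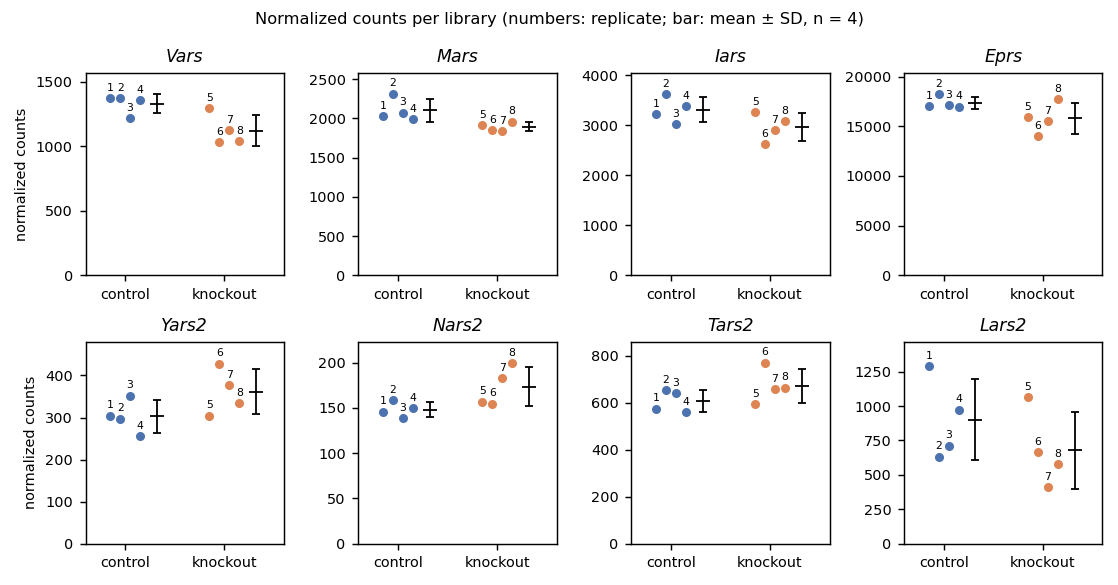
Normalized counts of 4 cytosolic (top) and 4 mitochondrial (bottom) synthetase genes in each library, numbered by replicate, with the mean and SD of 4 mice as a black bar. Vars has knockouts 6 to 8 below every control and Tars2 has them above, Mars is the 1 gene without overlap between the groups, and Lars2 has the widest spread within each group.

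At the other end of the cytosolic set were Hars (histidine), Dars (aspartate) and Farsa, the alpha subunit of the phenylalanine enzyme. Hars had 684, 651, 769 and 653 normalized counts in floxed controls and 677, 784, 721 and 898 in knockouts (difference 0.15, SE 0.107, limma adjusted p = 0.765), and the groups overlapped. Without knockout 8, its highest library, the Hars difference was 0.078. Hars and Hars2 lie head to head on chromosome 18 and their annotated starts overlap. As with Mars and Ddit3, reads in that overlap cannot be told apart, since the strand setting of the counting is not given. The Dars difference was 0.13 (SE 0.0956) and the Farsa difference 0.10 (SE 0.0932), and Farsb, the beta subunit, was at 0.02 (SE 0.0991). Without knockout 6 the Dars difference was 0.056 and the Farsa difference 0.063.

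Farsa was also the cytosolic gene with the lowest level per length. It had 466, 462, 507 and 528 normalized counts in floxed controls and 505, 574, 499 and 533 in knockouts, with knockouts 6 and 8 above every control.

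The enzymes that serve both compartments had differences near 0. Kars had 2187, 2369.7, 2294 and 2115 normalized counts in floxed controls and 2062, 2335, 2351 and 2411 in knockouts (difference 0.03, SE 0.0789, 95% interval from -0.14 to 0.20). Gars had 2434, 2309.7, 2319.8 and 2062 in floxed controls and 2071, 2144, 2466 and 2285 in knockouts (difference -0.03, SE 0.0849, 95% interval from -0.21 to 0.16). In both genes the knockouts spread across the range of the controls. The sign of the Gars difference turned with every library scaled to the same total (0.015).

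Wars, the tryptophan enzyme gene, is known to be induced by interferon gamma. It had 859, 844, 762 and 838 normalized counts in floxed controls and 801, 758, 886 and 769 in knockouts, with overlapping groups (difference -0.04, SE 0.0863). Of 12 tested interferon-induced genes, 7 had a difference above 0 and 5 below, with 0 called and a median of 0.22. B2m, the light chain of class I antigen presentation, was at 0.26 (SE 0.126), and Gbp3, a guanylate-binding protein gene, at 0.53 (SE 0.264).

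Synthetases fall into 2 classes with unrelated catalytic folds. Of 9 cytosolic class I genes, 8 had a difference below 0, with Qars (glutamine) at 0.04 as the exception and a median of -0.070. Among them, Wars and Yars turned above 0 with every library scaled to the same total, at 0.00081 and 0.011. Over all tested genes, 50.6% had a difference above 0. Of 10 cytosolic class II genes, 7 were above 0, with a median of 0.029. In the mitochondrial set, 8 of 9 class I genes and 8 of 8 class II genes were above 0. Eprs holds a domain of each class and was left out of these counts. These groupings were made with the values known and no test was made of them.

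Of 8 synthetases held in the multisynthetase complex (Dars, Eprs, Iars, Kars, Lars, Mars, Qars and Rars), 5 had a difference below 0 and 3 above, with a median of -0.068. The scaffold genes of the complex had differences above 0 in 3 of 3, with 0 called and a median of 0.35. Aimp2, a scaffold that binds several of its enzymes, had 2010.1, 1619.6, 1964 and 1769 normalized counts in floxed controls and 2028, 3314, 1818 and 2621 in knockouts, with knockouts 5, 6 and 8 above every control and knockout 5 just so (difference 0.38, SE 0.166, limma adjusted p = 0.746). Eef1e1, which encodes the scaffold protein AIMP3, was at 0.35 (SE 0.186).

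The 5 genes whose windows hold the ATF4 element had differences of -0.16 (Iars), -0.10 (Aars), -0.07 (Tars), -0.03 (Yars) and -0.03 (Gars). The last 2 turned above 0 with every library scaled to the same total, at 0.011 and 0.015. Of 24 tested ATF4 targets that are not synthetases, 10 were above 0 and 14 below, with 0 called and a median of -0.090. Aldh1l2, a mitochondrial folate enzyme gene, had 261, 229.7, 226 and 323 normalized counts in floxed controls and 227, 77.3, 166 and 94.4 in knockouts (difference -0.99, SE 0.298, limma adjusted p = 0.746). Knockout 5 again lay among the controls and the other 3 below them. Cebpb, a transcription factor gene, was at -0.31 (SE 0.152), and Atf4 itself at -0.08 (SE 0.0692).

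A list of 7 tested genes held sensors of uncharged tRNA or leucine and genes that act with them. Of these, 4 were above 0 and 3 below, with 0 called and a median of 0.015. Gcn1l1, whose product passes the signal of uncharged tRNA to the kinase GCN2, was at -0.22 (SE 0.0931), and Eif2ak4, the gene of that kinase, at -0.27 (SE 0.200).

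In the mitochondrial set, Yars2 and Nars2 were among the genes with the highest differences. Yars2, which charges tyrosine, had 304, 298, 352 and 256 normalized counts in floxed controls and 305, 428, 378 and 334 in knockouts (difference 0.25, SE 0.138, limma adjusted p = 0.748). Knockouts 6 and 7 were above every control. Nars2, which charges asparagine, had 146, 158, 139 and 149 in floxed controls and 157, 155, 182 and 199.7 in knockouts (difference 0.22, SE 0.134, limma adjusted p = 0.751), with knockouts 7 and 8 above every control. Leaving out floxed control 4 or knockout 6 gave Yars2 differences of 0.175 and 0.166.

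Tars2, the threonine enzyme gene, had 575, 653, 642 and 562 normalized counts in floxed controls and 593, 771, 657 and 664 in knockouts (difference 0.14, SE 0.103, limma adjusted p = 0.775). Knockout 6 was well above the others, while knockouts 7 and 8 were just above the highest control, and without knockout 6 the difference was 0.072. Iars2 had 2222, 2378, 2353 and 2175 in floxed controls and 2146, 2649, 2339 and 2580.3 in knockouts (difference 0.09, SE 0.0854), with knockouts 6 and 8 above every control. The Iars2 difference was 0.042 without knockout 6, 0.055 without knockout 8 and 0.143 without knockout 5.

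Pars2 was the least abundant member, with between 26 and 61 reads in a library. It had 27.9, 53.1, 49.0 and 40.9 normalized counts in floxed controls and 47.8, 29.4, 52.1 and 53.3 in knockouts (difference 0.10, SE 0.281, 95% interval from -0.52 to 0.72). Its SE was the second largest of the members, after that of Lars2, and its interval holds the differences of all other mitochondrial members.

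Another 10 mitochondrial genes lay between 0.02 and 0.17. These were Cars2 at 0.17 (SE 0.154), Ears2 at 0.16 (SE 0.161), Hars2 at 0.12 (SE 0.116), Wars2 at 0.10 (SE 0.163) and Mars2 at 0.10 (SE 0.0930). They were followed by Vars2 at 0.09 (SE 0.118), Aars2 at 0.09 (SE 0.119), Sars2 at 0.08 (SE 0.121), Fars2 at 0.02 (SE 0.118) and Rars2 at 0.02 (SE 0.137). The 95% interval of each of them included 0. With 1 library left out, Cars2 ranged from 0.039 (without knockout 6) to 0.252 (without knockout 7), and Ears2 was at 0.064 without floxed control 1.

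Lars2, the mitochondrial leucine enzyme gene on chromosome 9 (123366927 to 123462666, plus strand), was the 1 mitochondrial member with a difference below 0. It had 1289.7, 633, 712 and 975 normalized counts in floxed controls and 1066, 667, 409 and 576 in knockouts (difference -0.44, SE 0.282, 95% interval from -1.06 to 0.18, limma adjusted p = 0.759). Floxed controls 1 and 4 and knockout 5 were high and the other libraries low, so the split ran across the groups. Its coefficient of variation was 32.9% within floxed controls and 41.1% within knockouts, above that of every other member in each group, the next being Pars2 at 26.0% and 24.3%. The difference was -0.685 without knockout 5, -0.249 without floxed control 1 and -0.224 without knockout 7.

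The 3 libraries with the most Lars2 were also those with the largest titin shares and the most Gm26917. Gm26917, a long noncoding RNA gene on chromosome 17 (39843013 to 39846341), had 115400, 90729.5, 94957 and 120702 normalized counts in floxed controls and 109137, 104917, 77848 and 81284 in knockouts. Gm42418, a gene close to it (39846958 to 39848788), overlaps an annotated rRNA gene on the opposite strand. Gm42418 had 14811, 8661, 9013 and 10593 normalized counts in floxed controls and 8345, 11410, 7569 and 7542 in knockouts. Its highest libraries were floxed control 1 and knockout 6, and knockout 5 lay below every floxed control. Its order thus differed from that of Lars2. The part of titin or of either noncoding gene in the Lars2 values was not tested.

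The remaining cytosolic genes had differences from -0.10 to 0.05. Below 0 were Aars at -0.10 (SE 0.0835), Cars (cysteine) at -0.08 (SE 0.0758), Rars (arginine) at -0.07 (SE 0.0768), Tars (threonine) at -0.07 (SE 0.0824), Lars (leucine) at -0.07 (SE 0.0692) and Yars (tyrosine) at -0.03 (SE 0.0897). Above 0 were Sars (serine) at 0.05 (SE 0.0730), Qars at 0.04 (SE 0.0801) and Nars at 0.03 (SE 0.0677). Nars varied least of all members among floxed controls, with a coefficient of variation of 1.20%, and had one of 4.37% in knockouts. Tarsl2, a threonine enzyme gene outside the naming rule, had between 2102 and 2539 normalized counts and a difference of 0.01 (SE 0.0787).

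Genes that work beside the mitochondrial synthetases also had values above 0 for the most part, with 0 called. Mitochondria make glutamine tRNA by converting a mischarged glutamate tRNA, and the genes of that step and of initiator formylation were above 0 in 4 of 4, with a median of 0.35. Gatb, a subunit of the converting enzyme, had 449, 442, 434 and 425 normalized counts in floxed controls and 489, 595, 461 and 568 in knockouts, with every knockout above every control (difference 0.26, SE 0.104, limma adjusted p = 0.746). Qrsl1, its catalytic subunit gene, was at 0.43 (SE 0.216).

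Mitochondrial translation factors were above 0 in 8 of 9, with a median of 0.20. Gfm1, an elongation factor gene, was at 0.24 (SE 0.0987), and Tsfm, which recharges the factor that delivers charged tRNA, at 0.43 (SE 0.191). Mitochondrial tRNA processing and modification genes were above 0 in 10 of 15, with a median of 0.042, with the genes of the tRNA-modifying enzymes Cdk5rap1 at 0.32 (SE 0.152) and Osgepl1 at 0.22 (SE 0.119).

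Cytosolic elongation factors were above 0 in 4 of 6, with a median of 0.096. Among them are factors that take up charged tRNA or recycle the factor that does. Eef1a1 was at 0.20 (SE 0.110) and Eef1g at 0.17 (SE 0.0971). Of 9 tested genes of selenocysteine tRNA, tRNA end repair and synthetase-like proteins, 7 were above 0, with a median of 0.035. Eefsec, the elongation factor gene for selenocysteine, was at 0.26 (SE 0.203) and Pstk, a kinase of selenocysteine tRNA, at 0.20 (SE 0.163).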

How the data were processed

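RNA-seq of fasted white quadriceps covered 4 floxed control and 4 Acot2 muscle knockout mice. Per the labels' protocols, RNA was taken with a tissue extraction kit and the library kit kept strand. Tools named in the submitters' processing notes, with no version, are STAR, HTSeq, DESeq2, cutadapt and FastQC, and the build is GRCm38; annotation, filters and strand setting were not given in the sources used here. Deposited by the authors were log2 values of the form log2(n + 1), with n the count over 1 size factor per library and no length scaling. That form was read from the values: up to 200 reads, 100% of recovered reads were whole to within 0.1 in each library.

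Genes with a mean of at least 10 normalized counts (13141) were tested with limma 3.58.1 in R 4.3.3 (eBayes with trend), with Benjamini-Hochberg adjustment and a threshold of 0.05; the pseudocount is the deposited 1, which understates changes of low genes. The labels give each mouse its own number; p-values measure only the spread between these samples. The script was tested on simulated data. Acot2 was compared by exact permutation over 70 splits. All members enter the counts, medians and set means, and 1 member is not reported here by name or drawn; in each set the 5 with the smallest p and the highest and lowest per kilobase, with Kars, Gars and Wars, were given in every library, that member left out. Of each related list the 2 genes with the smallest p were named. Other named genes (Nars, Dars, Tarsl2, Atf4, Ddit3, Ttn, Gm26917, Gm42418), the per-library values of some listed genes, and the 6 motifs were chosen after values were seen. The members and lists were chosen with earlier results of these data known. Positions and transcript lengths are from GENCODE M21 (GRCm38). Alternatives covered pseudocount, filter, scaling, model, a term for mouse number range and left-out libraries.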

Additional observations from a re-analysis of the deposited data

Results flagged for a closer look

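In 3 of 76 sets of 4 libraries examined (37 synthetase genes and Acot2, in each group), 1 library lay far from the other 3, where chance flags about 5% of such sets. Vars was at 1219.9 normalized counts in floxed control 3, the lowest of its group. Eprs was at 18270.4 in floxed control 2, the highest of its group. Fars2 was at 441 in floxed control 4, the lowest of its group.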

How the results depend on the processing

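Over 20 alternatives, 0 of 739 values of synthetase genes passed an adjusted p of 0.05 (limma, smallest 0.106), and 22 values in 9 genes changed sign. That smallest value was Vars without knockout 5. There 2200 of 13141 genes had an unadjusted limma p under 0.05, against 810 with all libraries and 367 to 862 with another library left out. Among them were 2 cytosolic and 3 mitochondrial members, against 1 and 0 with all libraries. With every library scaled to the same total, and with voom on recovered reads, the cytosolic median turned from -0.036 to 0.0057 and 0.0061, and Wars (0.00081 and 0.0021), Yars (0.011 and 0.010) and Gars (0.015 and 0.016) turned above 0. Both settings scale by the total of each library, so they are not separate checks. In them the median of all tested genes moved as well, from 0.0031 to 0.044 and 0.047. Without floxed control 1, Gars was at 0.0061, Pars2 at -0.090 and Rars2 at -0.045; without control 3, Wars2 was at -0.0036; without control 4, Farsb was at -0.013 and Fars2 at -0.077. Without knockout 5, Yars was at 0.019 and Gars at 0.011; without knockout 6, Qars was at -0.010 and Yars at 0.0070; without knockout 7, Fars2 was at -0.010 and Rars2 at -0.020; without knockout 8, Farsb was at -0.065, Fars2 at -0.018 and Rars2 at -0.064. Without both floxed control 4 and knockout 5, Fars2 was at -0.031. The highest or lowest value of these genes on the other side, with 1 library left out, was 0.088 for Qars, -0.080 for Yars, -0.074 for Gars, 0.074 for Farsb, 0.195 for Wars2, 0.290 for Pars2, 0.068 for Fars2 and 0.093 for Rars2. Leaving out 1 library gave cytosolic medians from -0.073 to -0.012 and mitochondrial medians from 0.072 to 0.155; over all alternatives 14 to 16 mitochondrial genes were above 0 and 9 to 13 cytosolic genes below. The Acot2 difference was -2.30 with the mouse number range as a term (permutation p = 0.05) and -2.44 without floxed control 4 and knockout 5 (permutation p = 0.1), in each case the smallest p the design allows, and its limma adjusted p ranged from 0.0042 to 0.758. Without the filter on low values 1 gene was called, Acot2. Where not stated, the cause was not tested. No paired analysis was made because no label states a pairing of mice. The titles number the mice from 1 to 8 over both groups, and the headers of the deposited values number them within each group. The edgeR test planned as an alternative was not run, and voom on the recovered reads was the count-based test made in its place. Pars2 had the fewest reads, from 26 to 61 in a library.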
